A study of Mus musculus with 6 samples.

Results

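Aard, Lgals1 and Zfp367 were 3 genes of 55487 in a table of RNA-seq levels from the adult mouse subventricular zone (SVZ), the stem cell niche along the lateral ventricles. They were selected by name for large rises with tight replicates between the genotypes compared here, so their own differences are given as descriptions, with no test. The RNA came from YFP-positive cells sorted by flow cytometry. All mice carried NestinCreERT2, a Cre recombinase under Nestin control that tamoxifen switches on, and the R26;EYFP reporter, and were of a mixed C57BL/6;Sv/129 background. THC mice were Rb(F/+);p107(+/-);p130(F/+), heterozygous at each locus, and TKO mice were Rb(F/F);p107(-/-);p130(F/F). Both genotypes were 6 to 10 weeks old when tamoxifen gavage began, at 200 mg/kg/d over 5 days, and the SVZ was taken 10 days after dosing ended. Each of the 6 libraries, 3 THC and 3 TKO, came from several pooled mice and at least 200000 YFP-positive cells. The labels place THC 1 and TKO 1 in a February batch and the other libraries in a November batch. The p107 allele was not conditional, so in TKO it was missing from every cell of the animal, whereas Rb and p130 were floxed.

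The proteins of the RB family, encoded by Rb1, Rbl1 and Rbl2, attach to E2F transcription factors and so hold back genes of the cell cycle. Lgals1 encodes galectin-1, a small secreted lectin that binds galactose-containing sugars on glycoproteins and also acts inside the cell. In the adult SVZ, galectin-1 is known from a subset of astrocyte-like stem cells, where it promotes progenitor proliferation. Zfp367 encodes a zinc finger protein of the C2H2 class thought to act as a transcription factor. Aard encodes a small protein rich in alanine and arginine, without an established function, that is known from the testis.

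With the smallest step between values of a library taken as 1 read, which is not established for THC 1 and THC 3, libraries held 15536084 to 16961817 reads assigned to genes. Rbl1, which encodes p107, was at a normalized count of 497 to 646 in THC and 14.5 to 42.0 in TKO. A normalized count is the number of reads of a gene divided by 1 scaling factor per library. Counts over the whole of Rb1 (1631 to 2022 in THC and 2877 to 3573 in TKO) and Rbl2 (847 to 1250 and 912 to 976) do not check the loss of their floxed parts. Of the markers of SVZ stem cells and their progeny, Sox2, Nes, Gfap and Dcx were detected in all 6 libraries, but not at equal levels. Sox2 was at 1110 to 1304 in THC and 1381 to 1753 in TKO, and Nes at 373 to 436 and 854 to 1023. Gfap was at 4447 to 7494 in THC and 17885 to 28980 in TKO, and Dcx at 4294 to 5386 and 2510 to 3274. In these sorted populations, fewer cells of a type and less RNA per cell cannot be told apart.

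Of the members, Zfp367 had a promoter in the RefSeq table used (GRCm38.p6), with a pair of annotated starts, and Aard and Lgals1 were not matched. The sequence around the outer start of Zfp367 (chr13:64153150-64153449, minus strand, 250 bases before to 50 after the start) is shown with matches to short sequences marked. Capitals mark matches to the E2F letters TTTCCCGC, TTTCGCGC, TTTGCCGC or TTTGGCGC, to the cell-cycle element letters TTTGAA or TTCGAA, and to CCAAT, each searched on both strands. No marked stretch overlaps another.
Zfp367: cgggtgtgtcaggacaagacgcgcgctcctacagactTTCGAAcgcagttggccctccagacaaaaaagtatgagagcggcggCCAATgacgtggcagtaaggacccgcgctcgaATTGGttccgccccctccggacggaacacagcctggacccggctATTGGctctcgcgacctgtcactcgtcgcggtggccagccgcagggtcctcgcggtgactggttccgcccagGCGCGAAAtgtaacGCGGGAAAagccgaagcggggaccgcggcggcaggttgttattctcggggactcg
The marked stretches are, from the 5′ end, 1 cell-cycle element, 3 CCAAT matches and 2 E2F matches. The E2F matches lie on the opposite strand and begin 19 and 5 bases before the start site. Among 32851 promoter windows of this length in the table, 2.26% held an E2F match and 0.0974% held 2 or more. The cell-cycle element was found in 19.2% of windows and CCAAT in 37.4%. The window at the inner start of Zfp367 (chr13:64152324-64152623) held 1 E2F match and neither of the others. Among 36 genes of a G1/S list, 31 had a window, and 14 of these (45.2%) held an E2F match in at least 1 window, against 2.60% of all 27025 genes. None of the 9 galectin rows with a window held an E2F match, and 4 held CCAAT. A match of letters describes the sequence and does not show binding, and its part in the rise of Zfp367 was not tested.

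All 3 genes were higher in every TKO library than in any THC library. Among the 17278 genes tested, 38.9% had groups that did not overlap and 19.4% had every TKO value above every THC value. The members were chosen on this contrast for large rises with tight replicates. Their separation and their SD within genotypes therefore follow from the choice, and the values below are descriptions.

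Aard (ENSMUSG00000068522, chromosome 15, 52040107 to 52045722, GRCm38, plus strand) had normalized counts of 81.2, 88.8 and 83.8 in THC 1, 2 and 3. In TKO 1, 2 and 3 it had 1232, 1362 and 1221. Values within a genotype lay close together, and the lowest TKO value was 13.8 times the highest THC value. The means were 84.6 ± 3.85 (THC) and 1271 ± 78.4 (TKO) with SD over n = 3 each, a 15.03-fold difference. The fitted log2 change, on the log2(value + 1) scale and with batch in the model, was 3.89 (SE 0.16). It was 3.91 between the February libraries and 3.89 between the November libraries. Within genotypes, the SD of log2 values was 0.077, against a median of 0.20 over the 11905 genes with a mean normalized count of at least 100. Of these genes, 3.61% had a smaller SD than Aard.

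Lgals1 (ENSMUSG00000068220, chromosome 15, 78926725 to 78930465, plus strand) had normalized counts of 259, 294 and 226 in THC 1, 2 and 3. In TKO 1, 2 and 3 it had 2417, 2283 and 1934. TKO 3 was the lowest of its group and still 6.59 times the highest THC value. The means were 260 ± 33.7 and 2212 ± 249 (SD, n = 3 each), an 8.52-fold difference. The fitted log2 change was 3.09 (SE 0.15), with 3.22 in February and 3.02 in November. The SD of log2 values within genotypes was 0.18, and 39.7% of genes with a mean of at least 100 had a smaller one, so the replicates of Lgals1 were about as tight as those of many genes.

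Zfp367 (ENSMUSG00000044934, chromosome 13, 64133018 to 64153202, minus strand) had normalized counts of 979, 818 and 981 in THC 1, 2 and 3. In TKO 1, 2 and 3 it had 6179, 5259 and 5029. The February library was the highest of the TKO group, and the lowest TKO value was 5.13 times the highest THC value. The means were 926 ± 93.6 and 5489 ± 609 (SD, n = 3 each), a 5.93-fold difference. The fitted log2 change was 2.57 (SE 0.12), with 2.66 in February and 2.52 in November. Its SD of log2 values within genotypes was 0.15, and 29.7% of genes with a mean of at least 100 had a smaller one. Exons of Zfp367 share 603 bases with Gm47513, an unclassified transcript on the opposite strand, and the libraries do not keep strand. Gm47513 was at 1.89 to 7.02 in THC and 8.69 to 23.4 in TKO, far below Zfp367. How reads in the shared bases were assigned is not given, so these counts do not measure the effect of the overlap on Zfp367.

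**Figure D1:**
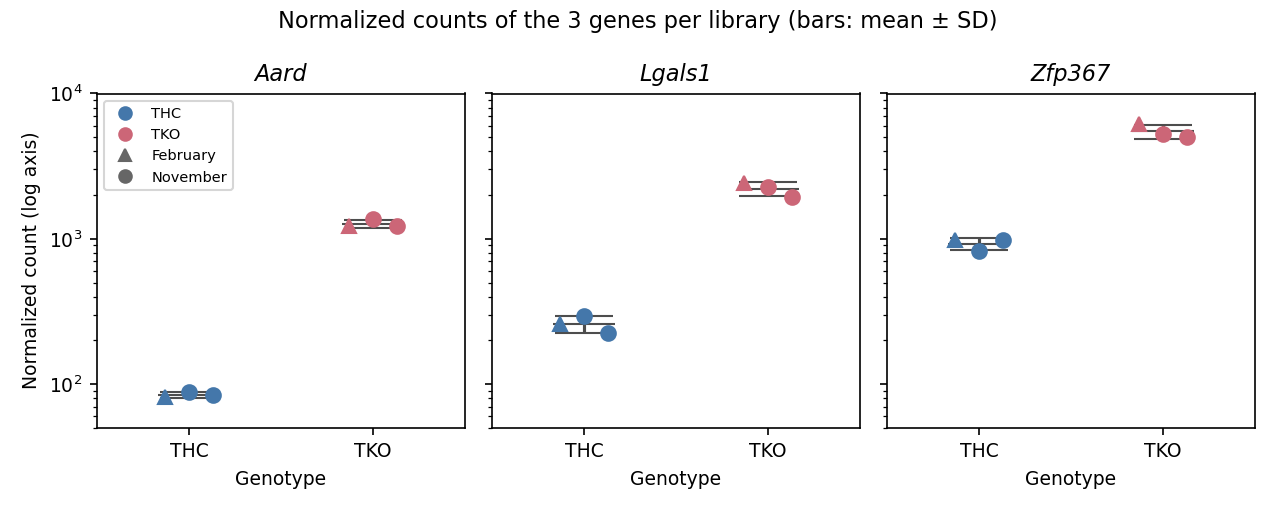
Normalized count on a log axis of Aard, Lgals1 and Zfp367 in the 3 THC (blue) and 3 TKO (red) libraries, with triangles for February, circles for November, and lines at the mean and at 1 SD on either side. Aard separates most widely, from 81.2 to 88.8 in THC and 1221 to 1362 in TKO, and no gene has overlapping groups.

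By size, none of the members led the table. Among the 11905 genes with a mean of at least 100, Aard ranked 12th by log2 change, Lgals1 33rd and Zfp367 69th. By the ratio of the lowest TKO value to the highest THC value, 7 other genes of this level equalled or passed Aard, 14 passed Lgals1 and 34 passed Zfp367. Over all 17278 genes tested, Aard, Lgals1 and Zfp367 ranked 36th, 102nd and 193rd by log2 change. These ranks follow from the choice of the members on this contrast. In the authors' deposited table the members stood in rows 3 (Aard), 4 (Zfp367) and 5 (Lgals1), with log2 fold changes of 3.91, 2.56 and 3.09. Between November and February the members differed little in THC, by 0.09 for Aard, 0.00 for Lgals1 and -0.13 for Zfp367 on the log2 scale. In TKO the corresponding differences were 0.07, -0.20 and -0.26.

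The galectins are a family of lectins that share a sugar-binding domain, and Lgals1 was set beside every other row named Lgals and Grifin. Of these 12 rows, 8 passed the filter on low values (a normalized count of at least 10 in at least 3 libraries). Grifin passed it through the TKO libraries alone, so that it had to differ, and is left out of the counts. Of the other 7, 3 were higher in TKO, 3 were lower and 1 was not called. Calls are at an adjusted p under 0.05 from limma with Benjamini-Hochberg adjustment over all genes, by which 27.9% of genes were called, 14.3% as higher and 13.6% as lower. The median log2 change of the 7 was 0.11, against 0.00 over all genes tested. The family did not move in 1 direction.

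The higher relatives were Lgals3, Lgals9 and Lgals3bp. Lgals3, which encodes galectin-3, the galectin with a collagen-like tail, was at 335, 510.0 and 344 in THC 1, 2 and 3 and at 943, 936 and 1130.0 in TKO 1, 2 and 3. Every TKO value of Lgals3 lay above every THC value, and the log2 change was 1.36 (SE 0.17, adjusted p = 9.7e-05). Lgals9, a galectin with paired sugar-binding domains induced by interferon, was at 271, 380 and 210.1 in THC and at 533, 546 and 600 in TKO (log2 change 1.002, SE 0.20, adjusted p = 0.0033). Lgals3bp, a secreted glycoprotein that galectins bind and not a galectin itself, was at 516 to 897 in THC and 1250 to 1635 in TKO. Its log2 change of 0.95 (SE 0.20) had an adjusted p of 0.0036, and it did not pass without the intensity trend (adjusted p = 0.062). Grifin, a galectin-like protein of lens fibres, was close to the limit of detection in THC at 1.89 to 5.01 and was at 13.5 to 25.4 in TKO.

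The lower relatives were Lgalsl, Lgals4 and Lgals8. Lgalsl, a galectin-related protein that does not bind lactose, was at 1198, 945 and 721 in THC 1, 2 and 3 and at 520.2, 456 and 463 in TKO 1, 2 and 3. The groups of Lgalsl did not overlap, and the log2 change was -0.96 (SE 0.15, adjusted p = 0.00055). Lgals4, a galectin of the gut epithelium that is also found in neurons, was at 278, 298 and 201 in THC and at 116, 67.7 and 96.6 in TKO (log2 change -1.47, SE 0.24, adjusted p = 0.00078). Lgals8, a galectin with paired sugar-binding domains that senses damaged vesicles, had overlapping groups, at 816 to 1095 in THC and 665 to 824 in TKO. Its log2 change was -0.41 (SE 0.13, adjusted p = 0.035), a call that ended without THC 1, THC 2, TKO 1, TKO 2 or TKO 3 (adjusted p 0.084 to 0.13), and with no filter, batch term or intensity trend (adjusted p 0.063 to 0.10). Lgals12 (72.7 to 101 in THC, 65.7 to 133 in TKO, log2 change 0.11, adjusted p = 0.80) did not pass.

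A further 4 rows were too low to test. Lgals2, a close relative of Lgals1 on the same chromosome, was at 0 to 5.01 in THC and 2.15 to 11.7 in TKO. Lgals7 was at 1.002 to 8.499 in THC and had no reads in TKO, where 0 reads allow a normalized count of up to 2.90 to 3.22 (3 reads per library, counting error only). The pseudogenes Lgals1-ps1 and Lgals1-ps2 had no reads in any library.

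Levels of different genes were compared as normalized counts per kb of annotated exon. In THC, Lgals1 stood first at 287 ± 37.4 (SD, n = 3), but its range of 251 to 325 overlapped those of Lgals8 (262 ± 38.0), Lgals3bp (257 ± 68.8), Lgalsl (232 ± 58.0) and Lgals3 (213 ± 53.0). The ranges of these 5 genes overlapped one another. Lgals9 (134 ± 40.2) reached 178, just above the lowest library of Lgalsl (175), and its range overlapped that of Lgals4 (112 ± 22.2). Both lay above Lgals12 (31.0 ± 5.18), and Lgals2, Grifin and Lgals7 were under 10 in every THC library.

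In TKO the order was wider spaced. Lgals1 was at 2449 ± 276 per kb, and its lowest library (2142) lay above the highest of Lgals3 (608). Lgals3 (540 ± 59.2) and Lgals3bp (488 ± 74.9) overlapped each other. Lgals9 (262 ± 16.6), Lgals8 (196 ± 23.4) and Lgalsl (117 ± 8.61) followed with separate ranges, and Lgals4 (40.4 ± 10.5), Lgals12 (34.6 ± 12.3) and Grifin (30.5 ± 9.90) overlapped. Summed per kb over the 10 galectin genes, with Lgals3bp and the pseudogenes left out, Lgals1 made up 21.1 to 23.9% in THC and 62.7 to 68.8% in TKO. Without Lgals1, the sum was 798 to 1128 in THC and 1149 to 1276 in TKO.

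**Figure D2:**
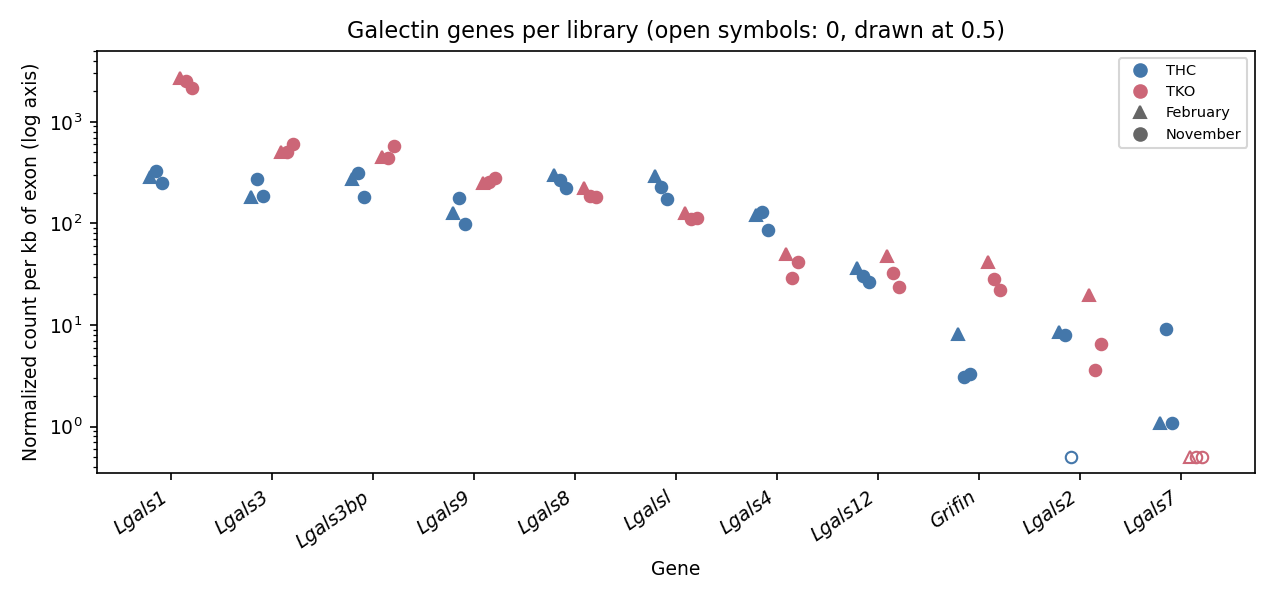
Normalized count per kb of exon on a log axis for Lgals1 and 10 relatives in each THC (blue) and TKO (red) library, with triangles for February, circles for November and open symbols for 0. Lgals1 lies among the other well-expressed relatives in THC (251 to 325) and above all of them in TKO (2142 to 2677).

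The partners of galectin-1 did not rise with it as a group. Of 21 genes for binding partners and counter-receptors, 18 were tested, of which Spn passed the filter through the TKO libraries alone. Of the other 17, 4 were higher, 5 were lower and 8 were not called, with a median log2 change of 0.16. Over all genes tested, 14.3% were called as higher and 13.6% as lower. Plxna4, a semaphorin receptor that galectin-1 engages together with neuropilin-1, was at 732 to 843 in THC and 318 to 387 in TKO (log2 change -1.14, SE 0.14, adjusted p = 8.0e-05). Vtn, the matrix protein vitronectin, which pericytes express, fell from 5474 ± 1314 to 2004 ± 560 (SD, n = 3 each; log2 change -1.47, SE 0.22, adjusted p = 0.00038). Lgals3bp, described above, was the third by adjusted p. Itgb1, the integrin beta subunit through which galectin-1 acts on SVZ progenitors, was at 4678 to 5797 in THC and 5859 to 6767 in TKO. Its log2 change of 0.24 (SE 0.13, adjusted p = 0.20) did not pass, and neither did that of Nrp1, neuropilin-1 (0.30, SE 0.13, adjusted p = 0.11).

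Enzymes that build the galactose-containing sugar chains recognized by galectins mostly did not pass. Of 32 genes of N-glycan branching and lactosamine synthesis, 31 were tested, 4 were higher, 3 were lower and 24 were not called, with a median log2 change of 0.03. The share called, 22.6%, was near that of all genes. Mgat5, which adds the branch on which galectin ligands are extended, was at 1085 to 1561 in THC and 1677 to 2122 in TKO (log2 change 0.56, SE 0.13, adjusted p = 0.0063). It did not pass without the intensity trend (adjusted p = 0.056). Mgat3, which adds a bisecting sugar that blocks branching, fell from 377 ± 45.2 to 204 ± 29.5 (SD, n = 3 each; log2 change -0.89, SE 0.19, adjusted p = 0.0039). The galactosyltransferase genes B4galt5 and B4galt1 had log2 changes of 0.68 ± 0.17 and 0.64 ± 0.20 (SE), with adjusted p of 0.011 and 0.032. B4galt5 did not pass without TKO 3 (adjusted p = 0.060), and B4galt1 did not pass with any single library left out other than THC 2 (adjusted p 0.071 to 0.13).

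Most genes with a name like that of Zfp367 did not pass the test. Of 401 other genes named Zfp and a number, 358 were tested, 27 were higher and 22 were lower. The share called was 13.7%, against 27.9% of all genes, and the median log2 change was -0.04. By log2 change Zfp367 ranked 2nd of 359, below Zfp819 (3.16), which was named after its value was seen. That rank follows from the choice of Zfp367 on this contrast. Per kb of exon, Zfp367 was at 168 ± 17.0 in THC, 59th among the 359, and at 995 ± 110.4 in TKO, 5th among them.

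The G1/S and DNA replication genes moved in the direction of Zfp367. Of 36 genes, 34 were higher, none was lower and Fen1 and Cdca7 were not called. The share called was 94.4%, against 27.9% of all genes. The median log2 change was 1.39, with 1.53 between the February libraries and 1.35 between those of November. E2f8 and E2f7, the atypical E2F repressors, had log2 changes of 2.34 ± 0.15 and 2.00 ± 0.16 (SE), with adjusted p of 1.8e-06 and 5.5e-06. Uhrf1, a factor of maintenance DNA methylation, had 1.79 (SE 0.14, adjusted p = 4.4e-06).

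Genes of testis supporting cells, in which Aard is known, did not rise with it. Of 23 genes, 10 were tested, of which Tesc passed the filter through the TKO libraries alone. Of the other 9, none was higher, 4 were lower and 5 were not called (median -0.44). Over all genes, 14.3% were higher and 13.6% lower. Tesc, which encodes the calcium-binding protein tescalcin, was at 7.02 to 7.55 in THC and 53.7 to 62.8 in TKO. Cldn11, a tight junction protein shared with myelin, and Ptgds, a prostaglandin synthase, were lower, with log2 changes of -2.12 ± 0.18 and -1.38 ± 0.15 (SE) and adjusted p of 5.8e-06 and 3.2e-05. Wt1, Cst9, Fshr and Rhox8 had no reads in any library.

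Profiles over the 6 libraries were compared by the Euclidean distance of log2(value + 1) after each gene's mean was taken off, so that shape and size both count. The genes named by this measure share the libraries and the genotype contrast with the member, and are a description. The median distance to all genes mostly reflects the size of the member's own step, on which it was chosen. It therefore does not measure how unusual a close gene is. Nearest to Aard were Prph (distance 0.47), Smim24 (0.47), Gm13123 (0.57), A730009L09Rik (0.61) and 9330175E14Rik (0.74), where the median over 17277 genes was 4.82. Prph, the intermediate filament peripherin of peripheral neurons, was at 6.01 to 8.08 in THC and 93.5 to 107 in TKO. Smim24, a small membrane protein, was at 21.2 to 27.1 and 299 to 305. Gm13123 and A730009L09Rik were listed at 0 in every THC library and at 14.5 to 21.5 and 18.5 to 20.4 in TKO. Most of Aard's nearest genes were therefore of low level. Prph, Gm13123, A730009L09Rik and 9330175E14Rik passed the filter through the TKO libraries alone, so they had to differ. Where THC was 0, the size of the step depends on the 1 added to each value.

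Nearest to Lgals1 were Cox6b2 (0.46), Xkr5 (0.50), Pmaip1 (0.53), Tesc (0.54) and Gbp3 (0.57), with a median over all genes of 3.86. Cox6b2, the testis form of a cytochrome c oxidase subunit, was at 145 to 212 in THC and 1193 to 1289 in TKO. Pmaip1, the pro-apoptotic p53 target Noxa, was at 78.8 to 139 and 654 to 942. Gbp3, an interferon-induced GTPase, was at 265 to 449 and 2237 to 2564. Nearest to Zfp367 were Ckap2 (0.21), Eda2r (0.28), Cdkn1a (0.32), Gm10635 (0.34) and Mmp17 (0.43), with a median of 3.23. Ckap2, a protein of the mitotic spindle, was at 1480 to 2060 in THC and 10576 to 11921 in TKO. Cdkn1a, the cyclin-dependent kinase inhibitor p21, was at 858 to 1085 and 5045 to 6134, and Eda2r, a death receptor gene, at 123 to 185 and 794 to 1070. Tesc and Gm10635 passed the filter through the TKO libraries alone, so they too had to differ. Among themselves the members were less alike. Lgals1 was the 17th nearest gene to Aard (1.04), and Zfp367 was the 21st nearest to Lgals1 (0.80) and the 101st nearest to Aard (1.68).

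**Figure D3:**
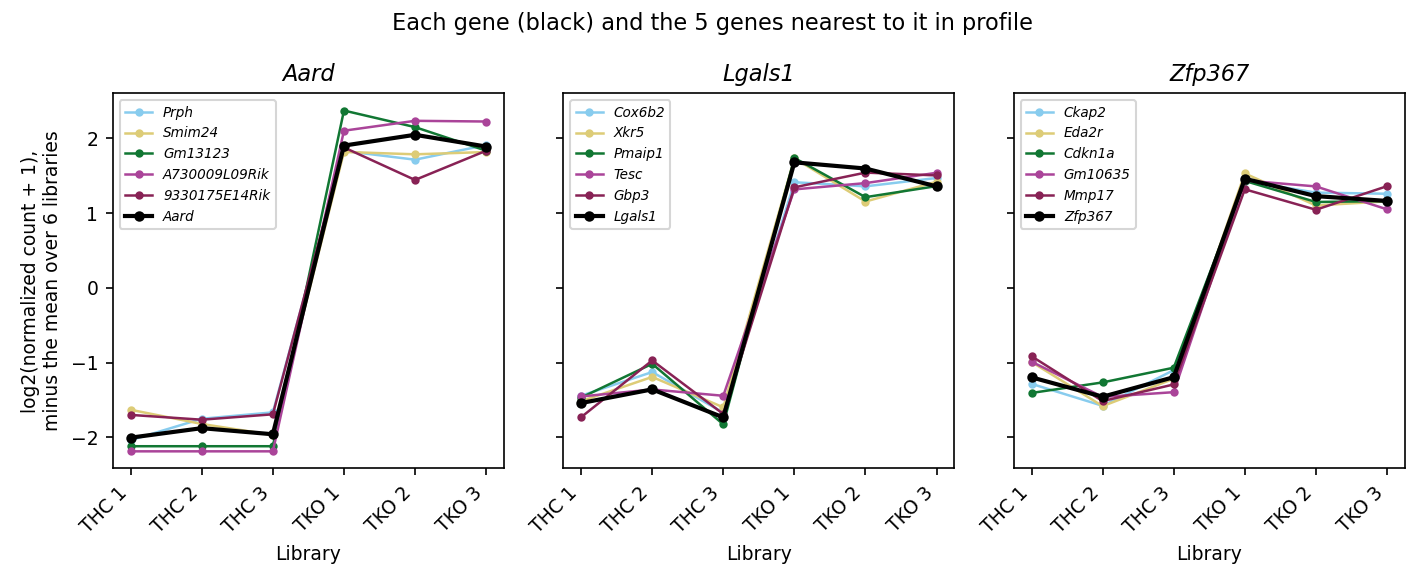
Centred log2(normalized count + 1) in each library for Aard, Lgals1 and Zfp367 (black) and for the 5 genes nearest to each in profile (colours). Lines of a panel nearly coincide, most closely for Zfp367 and Ckap2 (distance 0.21), and among the 3 members the step between THC and TKO is largest for Aard.

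Genes next to the members on the chromosome were read from the annotation, within 500 kb between starts. Their counts stand beside 27.9% of all genes called, 14.3% as higher and 13.6% as lower. Around Aard, 16 genes were annotated and 4 were tested. Leaving aside Rpl15-ps6, which passed the filter through the TKO libraries alone, 1 of 3 was higher. Rad21, a cohesin subunit whose start lies 48.4 kb from that of Aard, rose from 3374 ± 496 to 8649 ± 876 (SD, n = 3 each; log2 change 1.36, SE 0.14, adjusted p = 2.5e-05). Rpl15-ps6, a processed pseudogene of a ribosomal protein 438 kb away, was at 2.00 to 5.05 in THC and 44.4 to 82.0 in TKO. Its reads may be shared with other copies. Utp23 (0.29) and Eif3h (0.16) were not called.

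Around Lgals1, 28 of 54 annotated genes were tested. Without Gm36738, which passed the filter through the TKO libraries alone, 4 of 27 were higher, 3 were lower and 20 were not called (median -0.11). These counts lay near the shares of all genes called as higher (14.3%) and lower (13.6%). The genes nearest on either side, Nol12 (8.21 kb, log2 change 0.22) and Pdxp (12.8 kb, -0.02), did not pass. Triobp, an actin-binding protein 21.0 kb away, rose from 339 ± 23.5 to 696 ± 22.7 (SD, n = 3 each; log2 change 1.04, SE 0.14, adjusted p = 0.00020). H1f0, the linker histone of cells leaving the cycle, had a change of 1.22 (SE 0.16, adjusted p = 0.00019) and Ankrd54 one of 1.065 (SE 0.13, adjusted p = 8.7e-05). Maff (0.98, adjusted p = 0.040) was the other higher gene, and Gm36738 was at 4.01 to 7.07 in THC and 17.2 to 32.8 in TKO. Maff was at 814 in TKO 1 and 197 and 328 in TKO 2 and 3, and without TKO 1 its change was 0.38 (adjusted p = 0.34). Leaving out THC 1 gave the same change (adjusted p = 0.31), because without either February library only the November change is left. Maff also did not pass without TKO 3 (0.13), with no filter, batch term or intensity trend (0.061 to 0.17), or with upper-quartile scaling (0.062). The lower genes were Pla2g6 (-1.02, adjusted p = 0.00089), Gcat (-1.073, adjusted p = 0.016) and Micall1 (-0.72, adjusted p = 0.025). Gcat lost its call without THC 1, THC 3 or TKO 2 (adjusted p 0.055 to 0.068), and Micall1 did not pass without THC 3 (0.10) or TKO 2 (0.12).

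Around Zfp367, 7 of 32 annotated genes were tested, and their log2 changes ran from -0.42 to 0.65. Ercc6l2, a DNA repair helicase gene, was the 1 gene called (0.38, SE 0.13, adjusted p = 0.048), and it did not pass with any single library left out (adjusted p 0.092 to 0.16). Habp4, whose start lies 8.62 kb from that of Zfp367, had a change of -0.42 (adjusted p = 0.051).

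**Figure D4:**
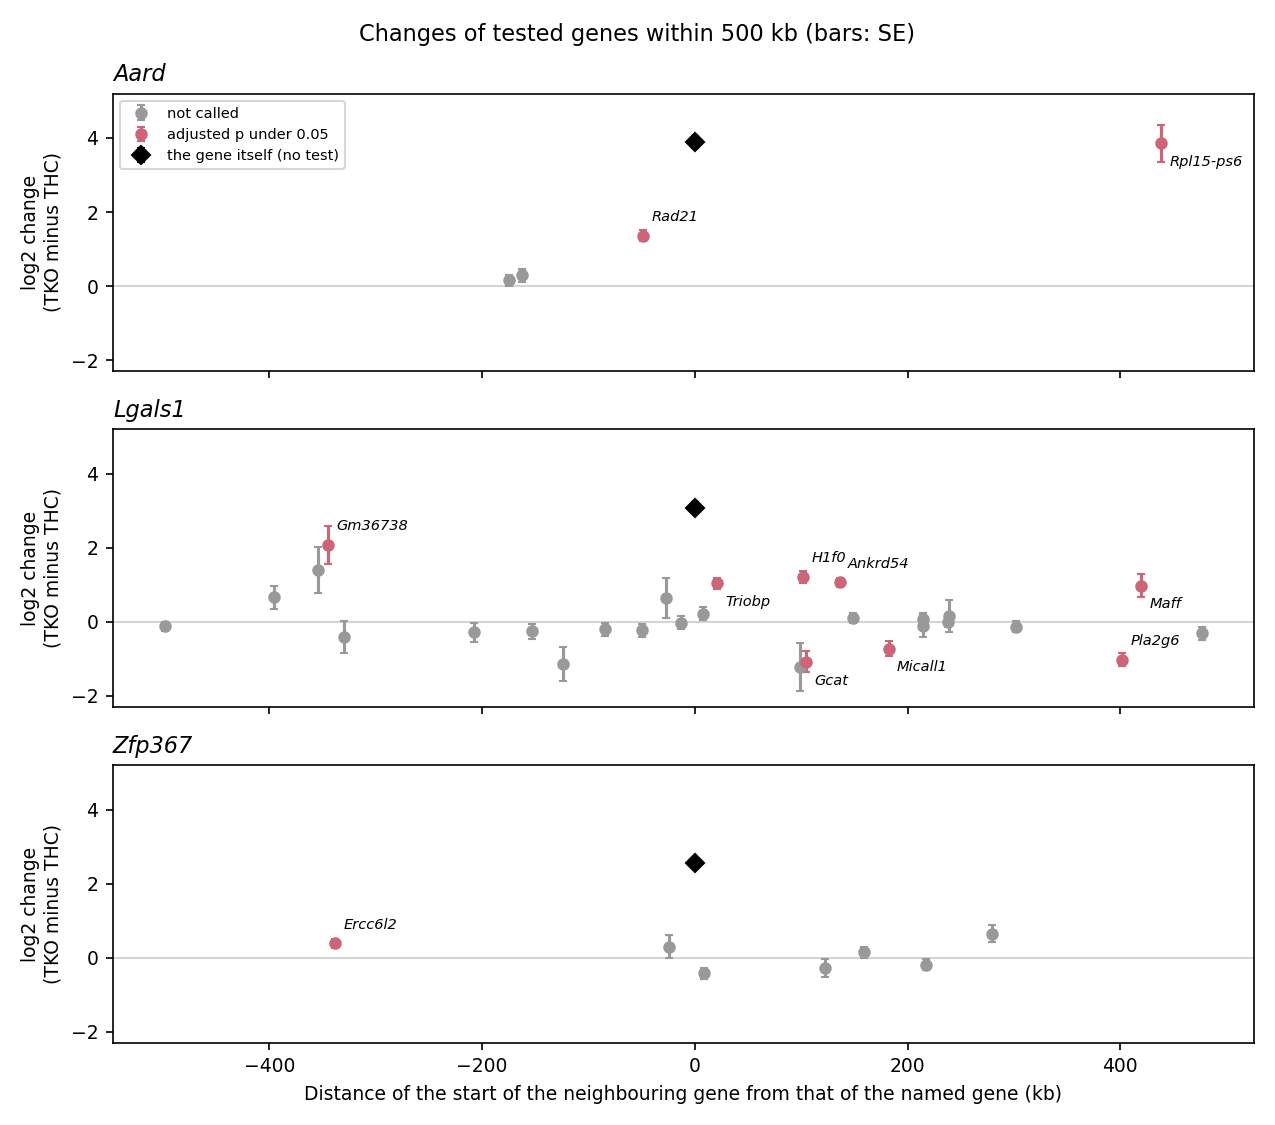
Log2 change (TKO minus THC, bars for SE) of every tested gene within 500 kb of Aard, Lgals1 or Zfp367 against the distance between starts in kb, positive towards higher chromosome positions, with called genes in red and the member as a black diamond. Called genes lie among uncalled ones on either side of Lgals1, and the tested neighbours of Zfp367 lie between -0.42 and 0.65.

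Markers of other cell types also differed between genotypes, and their part in the rises of the 3 genes was not tested. The counts of each list stand beside 14.3% of all genes called as higher and 13.6% as lower. Of 19 tested microglia and macrophage genes, 9 were higher and none was lower (median 0.91), among them Fcrls (1.48), Cd68 (0.88) and Aif1 (1.72), none of which passed with no batch term (adjusted p 0.24 to 0.36). Aif1 did not pass without TKO 2 either (0.071). The summed level of this list was 7830, 1840 and 1354 in THC 1, 2 and 3. It was 12457, 3128 and 2027 in TKO 1, 2 and 3. The sum was highest in the February library of each genotype, and within each batch TKO lay above THC. The median log2 change was 0.78 between the February libraries and 1.11 between those of November.

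Vascular markers were lower. None of 15 endothelial genes was higher and 12 were lower (median -1.25, with -0.65 in February and -1.57 in November), led by Cldn5 (-1.64), Flt1 (-1.17) and Abcb1a (-1.30), and of 13 mural genes 7 were lower (median -1.18, with -0.52 and -1.45), led by Pdgfrb (-1.32), Higd1b (-1.93) and Abcc9 (-1.48). Of 13 tested fibroblast and meningeal genes, Lum passed the filter through the THC libraries alone. Of the other 12, 1 was higher, 3 were lower and 8 were not called (median -0.54). The list was led by Slc6a13 (-1.51), Islr (-1.24) and Mgp (-1.24), and its highest change was that of Crabp2 (1.68). Leaving out THC 2 or TKO 2 ended the call of Mgp (adjusted p 0.089 and 0.078). The summed levels were 7830 to 17743 in THC and 3538 to 4905 in TKO for the endothelial list and 2368 to 8594 and 3664 to 6291 for the fibroblast list. For the mural list they were 12523 to 19178 and 5034 to 8609.

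Of 14 oligodendrocyte genes, 11 were lower and 1 was higher (median -1.92), led by Mag (-2.59), Opalin (-2.52) and Ermn (-1.99). Of 14 neuroblast genes, 10 were lower and none was higher (median -0.53), led by Gad1 (-0.94), Tubb3 (-1.04) and Gad2 (-0.67). Of 14 ependymal genes, Mcidas passed the filter through the TKO libraries alone (0 to 4.72 in THC, 22.4 to 23.2 in TKO). Of the other 13, 3 were lower and none was higher (median -0.20, with 0.91 in February and -0.74 in November), led by Rarres2 (-1.02) and Tmem212 (-1.32). Dropping the batch term or the intensity trend ended the call of Rarres2 (adjusted p 0.054 and 0.10). Tmem212 did not pass with no intensity trend (adjusted p = 0.14), nor without THC 2, THC 3, TKO 2 or TKO 3 (0.054 to 0.072).

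Of 18 genes of quiescent stem cells and astrocytes, 9 were lower and 2 were higher (median -0.57), led by Slc7a10 (-2.47), Ntsr2 (-2.38) and Aldoc (-2.35). Of 28 tested genes of reactive astrocytes, 19 were higher and 2 were lower (median 1.66), led by Emp1 (2.92), Psmb8 (3.30) and Cd109 (2.77). The summed level of the reactive list was 17132 to 26364 in THC and 55304 to 70676 in TKO and did not overlap. The sums of the endothelial, mural, oligodendrocyte, neuroblast, G1/S and testis supporting cell lists did not overlap either, and those of the other lists did. Of all single genes tested, 38.9% had groups that did not overlap, which is not a like measure for sums. Gfap, which is in the quiescent and the reactive list, was at 4447 to 7494 in THC and 17885 to 28980 in TKO. Of 13 genes of activated stem cells and progenitors, 6 were higher and 1 was lower (median 0.44), led by Mki67 (1.78), Fbxo5 (1.34) and Top2a (1.62).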

How the data were processed

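RNA was made into libraries with the SMART-Seq v4 and Nextera XT kits, which do not keep strand, per the labels' protocols. The submitters' processing notes name HISAT2, featureCounts of Subread, DESeq2 and GRCm38. The versions, the annotation and how reads with several matches were handled: not given in the sources used here, so close gene copies are uncertain. The deposited value per library is a normalized count, a signal equal to reads divided by 1 factor per library. All values of a library were whole steps (0.944 to 1.075, tolerance 0.001 steps), which gives the depth if 1 step is 1 read. The deposited table has, per the file headers, log2 fold changes with standard errors, a Wald score, weights (a score) and p-values.

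The members and lists were chosen with earlier results of these data known. limma 3.58.1 (R 4.3.3) was fitted to log2(value + 1) with terms for batch and genotype and a prior that follows mean level (intensity trend), over 17278 of 55487 genes with a normalized count of at least 10 in at least 3 libraries. It left 3 residual and 8.90 prior degrees of freedom. The script was tested on simulated data. The series calls the samples biological replicates, and no pair within a genotype agreed to within sampling noise (chi-square over its degrees of freedom 14.2 to 40.0). Exon lengths and coordinates are from GENCODE M21 and promoters from RefSeq. Genes named were the members, galectin rows, the 5 nearest profiles per member, called genes within 500 kb and the 3 smallest adjusted p per list, with Itgb1, Nrp1, Mgat5 and B4galt1. Others were added after their values were seen. Alternatives were pseudocounts of 0.5 and 5, no filter or one at 50, no batch term, no trend, a replicate block, each library left out and, chosen after seeing the data, upper-quartile scaling. The planned count tests and TMM scaling were not run, because the recovery of whole reads is not claimed where a step lies near 1.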

Additional observations from a re-analysis of the deposited data

How the results depend on the processing

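The changes of the members moved by less than their replicate SD under all 14 alternatives, from 3.83 to 3.94 for Aard, 2.9997 to 3.21 for Lgals1 and 2.50 to 2.65 for Zfp367. With each library left out they were 3.85 to 3.94, 2.9997 to 3.21 and 2.50 to 2.65. For every gene, leaving out THC 1 or TKO 1 gives the same change, that of November. The batch term then absorbs the February library that is left. The members were chosen for large rises with tight replicates, so this stability follows from the choice. The filter, batch, trend and block settings cannot alter the fitted changes of the members in this balanced design, so their agreement is no check. Genes called numbered 4814, and 3510 to 4246 with a library left out (1793 to 2215 higher, 1600 to 2031 lower). Without the intensity trend 1484 genes were lower, against 2345, and the cause was not tested. Abcb1a, Micall1, Mgp, B4galt1 and Ercc6l2 also lost their calls there (adjusted p 0.062, 0.067, 0.073, 0.094 and 0.096). Upper-quartile scaling ended those of B4galt1 (0.050) and Ercc6l2 (0.069), and Ercc6l2 did not pass with no filter (0.082) or batch term (0.068). Between 5 and 7 galectin relatives were called, against 7, Grifin included. Where a TKO library is left out Grifin fails the filter by construction. Lgals12 changed sign with THC 1 or TKO 1 left out (-0.030, range -0.030 to 0.27) and was not called. Of 63 named genes with a test, 46 kept direction and call under every alternative that tested them. With the replicate number as a block, 4069 genes and 6 galectin relatives were called, and Lgals8 (adjusted p = 0.064), Maff (0.053) and Ercc6l2 (0.095) did not pass. Deviations of same-numbered libraries correlated at 0.23, -0.11 and 0.14 across genes, and those of differently numbered ones at -0.28 to 0.18. Number 1 is also the February batch, so these few values cannot show whether the numbers pair the samples. The edgeR, DESeq2 and TMM alternatives were not run. With 3 libraries per genotype, 1 of each in February, the February values rest on single libraries, and genes under about 10 reads carry large counting error.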
